A study of Rattus norvegicus with 22 samples.

Results

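Osteopontin, encoded by Spp1, and the receptors through which cells bind it were followed in the hippocampus of rats after traumatic brain injury (TBI). The genes are Spp1, Cd44 and the integrin subunits Itgav, Itgb1, Itgb3, Itgb5 and Itga5. Spp1 was chosen by its measured increase from sham to TBI, one of the largest in these same data, and the receptors were added for their known binding to osteopontin. The contrasts of TBI with sham therefore chose Spp1 and only describe it. Of the 7 genes, 6 were found among the 17172 genes of the table of counts, which makes 5 receptors; Itgav was not analysed here.

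Polyadenylated RNA was sequenced from the hippocampus on the injured side of 14 adult male Sprague-Dawley rats. The 8 TBI rats had a right parasagittal craniectomy and a lateral fluid percussion, and 4 of them were studied at day 1 and 4 at day 14. The 6 sham rats had the craniectomy and anesthesia without the percussion, and 2 were studied at day 1 and 4 at day 14. Each sample is 1 rat, and the groups share strain, sex and surgery, so an effect of the craniectomy itself is present in every group.

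Osteopontin is a secreted, phosphorylated glycoprotein of the extracellular matrix and a cytokine. It carries an RGD motif that is read by integrins with an alpha V subunit and by alpha 5 beta 1, next to a site that thrombin and matrix metalloproteinases cut, and it is also bound by CD44, whose best known ligand is hyaluronan. Integrins work as pairs of an alpha and a beta subunit that link the matrix to the actin cytoskeleton through talin, kindlins and focal adhesion kinases. In injured brain, osteopontin is known as a product of activated microglia and of macrophages, and CD44 as a surface protein of reactive astrocytes and leukocytes.

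The sequences upstream of Spp1, Cd44 and Itga5 are shown because these are the 3 measured genes of the group with the largest differences from sham at day 1. Each is the 250 bases before the annotated start in RefSeq, build GRCr8, 5′ to 3′ on the strand of the gene. Capitals mark matches to a RUNX motif (TGTGGT or TGCGGT) or a TATA box (TATAAA) on either strand. The windows lie at chr14:5619805-5620054, minus strand, for Spp1, at chr3:109699425-109699674, minus strand, for Cd44 and at chr7:136381306-136381555, minus strand, for Itga5.
Spp1: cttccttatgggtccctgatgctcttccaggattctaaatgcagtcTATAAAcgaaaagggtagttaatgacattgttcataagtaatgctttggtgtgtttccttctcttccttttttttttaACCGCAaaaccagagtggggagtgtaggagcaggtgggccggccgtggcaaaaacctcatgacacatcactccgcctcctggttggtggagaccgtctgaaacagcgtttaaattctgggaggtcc
Cd44: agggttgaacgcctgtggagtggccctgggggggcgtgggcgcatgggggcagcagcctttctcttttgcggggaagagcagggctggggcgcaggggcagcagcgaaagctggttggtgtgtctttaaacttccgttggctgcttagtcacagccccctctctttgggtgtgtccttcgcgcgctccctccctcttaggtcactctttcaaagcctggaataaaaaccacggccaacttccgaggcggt
Itga5: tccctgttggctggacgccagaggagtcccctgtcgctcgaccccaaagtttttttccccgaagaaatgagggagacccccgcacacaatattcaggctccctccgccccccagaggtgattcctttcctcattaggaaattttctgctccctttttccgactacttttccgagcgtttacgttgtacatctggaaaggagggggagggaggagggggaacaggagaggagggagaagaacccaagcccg
The annotated span of Spp1, 5613569 to 5620695 on chromosome 14, reaches past the window, so another transcript of the gene starts further upstream. The same holds for Cd44, whose span ends at 109699776 on chromosome 3. RefSeq windows matched 6 of the 7 genes, all but Itgb3. The Spp1 window held a RUNX match 126 bases before the start and a TATA box match 204 bases before it, and the only other match among the 6 was a RUNX match 16 bases before the start of Itgb5. Of all 33469 windows of this length, 19.0% held the RUNX motif and 12.9% the TATA box. An AP-1 motif (TGANTCA, in 6.34% of all windows) and a consensus NF-kB motif (in 1.30%) matched none of the 6 on either strand, and the motifs do not overlap one another in these windows. The Spp1 window had 46.8% G and C, the lowest of the 6, against 55.6% in Itga5, 60.8% in Cd44 and up to 74.4% in Itgb5. A match of letters is a description and not a bound site.

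Total counts per sample ranged from 15065540 to 23743703. Choroid plexus transcripts set 3 libraries apart: the sum of the 10 listed markers was 8454 CPM (counts scaled to a common library total) in sham day 1 replicate 1, 1516 and 7495 in TBI day 14 replicates 2 and 3, and between 6.41 and 21.6 in the other 11. Otx2, a defining gene of that tissue, had 0 counts in all 14 samples. Markers of hippocampal neurons summed to between 209 and 1121 CPM, present in every sample. In bulk tissue, fewer cells of a type and less RNA per cell cannot be told apart, which holds for all levels below.

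Spp1 was close to silent in sham hippocampus. Its counts were 21 and 18 in sham day 1 and 35, 14, 22 and 21 in sham day 14. In TBI day 1 they were 23547, 20819, 26108 and 26238, and in TBI day 14 they were 1095, 683, 1031 and 3469. Every TBI sample lay above every sham sample, and every TBI day 1 sample above every TBI day 14 sample. Normalized for depth, sham rats had a mean Spp1 level of 0.98 CPM ± 0.21 (SD, n = 2) at the early and 1.37 ± 0.64 (SD, n = 4) at the late time. The injured rats had 1109 CPM ± 177 (SD, n = 4) at day 1 and 86.8 ± 65.7 (SD, n = 4) at day 14. In TBI day 1, Spp1 took from 0.0899% to 0.137% of all counts of a sample.

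The fitted difference of Spp1 from sham was 10.14 on the log2 scale at day 1 (SE 0.79) and 6.00 at day 14 (SE 0.49), and TBI day 14 was lower than TBI day 1 by a log2 difference of −3.68 (SE 0.41). No test is given for these values, since they chose the gene. There were 11832 genes with a mean log2 CPM above 0, and among those whose TBI samples of a day all lay above the sham samples, Spp1 ranked first at both days. Just below it stood Serpina3n at day 1 with 9.47 and Clec7a at day 14 with 5.88. With all 12875 tested genes included, whether or not their samples overlapped, it ranked 2 at day 1, behind Mmp12, and 10 at day 14. Ahead of it at day 14 stood Tmem27, Ttr, Xcl1, Sostdc1, Mmp12, Pon1, LOC24906, Glycam1 and Tmem72, of which Ttr, a choroid plexus transcript, had a mean log2 CPM above 0. The day 14 value rested in part on TBI day 14 replicate 4, which had 4.58 times the level of replicate 2; without that rat it was 5.33 and the difference between the TBI groups −4.34. Without the 3 libraries rich in choroid plexus these were 6.59 and −3.09. The sham groups overlapped in Spp1.

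**Figure D1:**
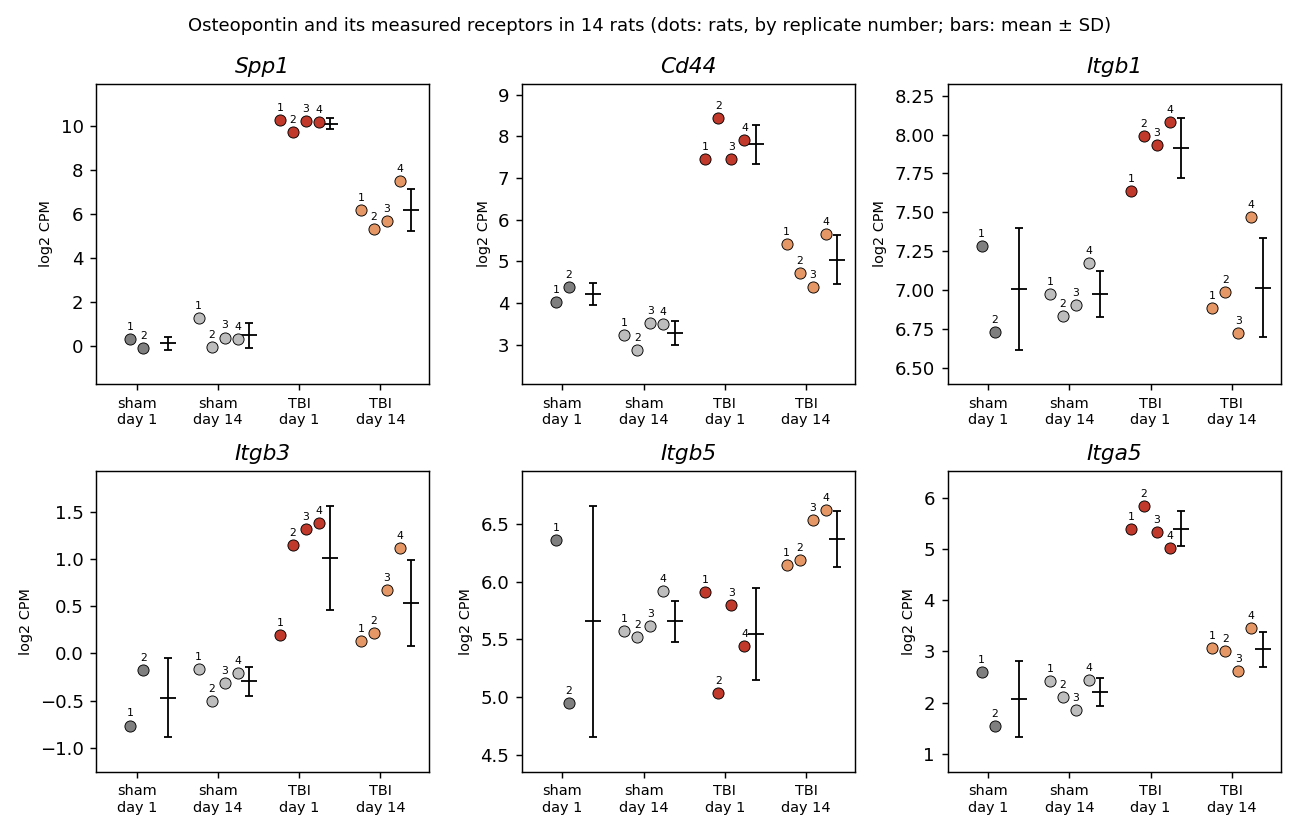
Expression of the 6 measured genes in each rat. The vertical axes show log2 CPM (prior count 2, a scale of its own for each gene), dots are rats with their replicate number, and bars beside them give mean ± SD. Spp1 sits between 9.72 and 10.25 in TBI day 1 and at 1.26 or lower in every sham rat, while Itgb5 shows no such step.

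Cd44, the receptor of hyaluronan and osteopontin, rose at both days. Its levels were 16.2 and 20.9 CPM in sham day 1 and 175, 346, 177 and 240 CPM in TBI day 1, so the groups were far apart. In sham day 14 they were 9.31, 7.27, 11.3 and 11.2 CPM and in TBI day 14 they were 42.7, 26.2, 20.8 and 50.2 CPM, again without overlap. The log2 fold change was 3.66 at day 1 (SE 0.40, edgeR adjusted p = 3.41e-05) and 1.84 at day 14 (SE 0.29, adjusted p = 0.00104), and both calls were kept under every alternative that was run (25 at day 1 and 24 at day 14). Against sham day 14, the day 1 value was 4.58. The order of the groups was TBI day 1, TBI day 14, sham day 1, sham day 14. The step between the TBI groups was −2.75 (SE 0.29, edgeR adjusted p = 1.02e-05), TBI day 14 overlapped sham day 1 in 1 rat, and sham day 1 exceeded sham day 14 by 0.92 (SE 0.34, adjusted p = 0.0689), with every sham day 1 rat above every sham day 14 rat. Over all genes, 21.3% had such a split between the sham groups.

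Itga5, which pairs with the beta 1 subunit to form the classical fibronectin receptor, rose at day 1. It had 5.93 and 2.81 CPM in sham day 1 and 41.8, 57.3, 40.3 and 32.5 CPM in TBI day 1. The log2 fold change was thus 3.30 (SE 0.35, edgeR adjusted p = 2.42e-05), a call kept under all 25 alternatives, with 3.93 without sham day 1 replicate 1. At day 14 its levels were 5.24, 4.21, 3.52 and 5.33 CPM in sham and 8.29, 7.91, 6.06 and 10.9 CPM in TBI. The groups stood apart, but the log2 fold change of 0.86 did not pass the test over all genes (SE 0.25, edgeR adjusted p = 0.0809). It did in 7 of 24 alternatives, among them DESeq2 (adjusted p = 0.0219) and fits without sham day 1 replicate 1 or 2 (both 0.86) or TBI day 14 replicate 3 (1.00). From TBI day 1 to TBI day 14 it fell by 2.37 (SE 0.25, edgeR adjusted p = 1.07e-05).

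Itgb1, the beta subunit shared by the largest number of integrin pairs, rose at day 1 by a smaller amount. Sham day 1 had 156 and 106 CPM and TBI day 1 had 199, 255, 244 and 271 CPM, with no overlap. The log2 fold change was 0.89 (SE 0.21, edgeR adjusted p = 0.0103). Without sham day 1 replicate 2 it was 0.64 and did not pass. Nor did it pass in the samples of day 1 alone (0.91, edgeR adjusted p = 0.0604). At day 14 the groups overlapped, with 114 to 145 CPM in sham and 106 to 177 CPM in TBI. The difference was then 0.07 (SE 0.17, edgeR adjusted p = 0.947, 95% interval −0.29 to 0.43), and −0.11 without TBI day 14 replicate 4. Between the TBI groups Itgb1 fell by 0.88 (SE 0.17, edgeR adjusted p = 0.00102).

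Itgb3, the partner of alpha V in the classical vitronectin receptor and of alpha IIb on platelets, was read at low depth, with 9 to 17 counts in sham samples, 20, 52, 52 and 56 in TBI day 1 and 15, 18, 30 and 39 in TBI day 14. All TBI samples of a day lay above the sham samples of that day in CPM. It rose at day 1 by 1.65 (SE 0.46, edgeR adjusted p = 0.0212), a call lost without sham day 1 replicate 1 (1.35) or replicate 2 (2.04). The call was also lost in the samples of day 1 alone (1.67, edgeR adjusted p = 0.146). At day 14 the difference of 0.97 did not pass (SE 0.36, edgeR adjusted p = 0.202), and neither did the step between the TBI groups of −0.52 (SE 0.34, adjusted p = 0.239). Pf4, the platelet marker that was tested, had log2 fold changes of 0.87 and 0.37 at the 2 days (edgeR adjusted p = 0.416 and 0.911), and Itga2b was not analysed here.

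Itgb5, the beta subunit of another vitronectin receptor with alpha V, was the 1 measured receptor not called at day 1. At day 1 it had 82.2 and 30.8 CPM in sham and 60.1, 32.6, 55.5 and 43.3 CPM in TBI, so that the TBI samples lay between the pair of sham samples. The log2 fold change was −0.24 (SE 0.31, edgeR adjusted p = 0.621, 95% interval −0.89 to 0.42). The high sham sample was replicate 1, the library rich in choroid plexus transcripts; without it the value was 0.64, and with a choroid plexus score as covariate 0.17, neither past the test. At day 14, Itgb5 had 47.4, 45.8, 48.9 and 60.3 CPM in sham and 70.4, 72.6, 92.6 and 98.5 CPM in TBI, without overlap. That log2 fold change of 0.72 did not pass over all genes (SE 0.25, edgeR adjusted p = 0.168), passed in 3 of 24 alternatives (0.76 in the samples of day 14 alone, and 0.72 without sham day 1 replicate 1 and also without replicate 2), and was 0.76 without the 3 libraries rich in choroid plexus. From TBI day 1 to day 14 Itgb5 rose by 0.80 (SE 0.25, edgeR adjusted p = 0.0213). This call was lost without TBI day 1 replicate 2 (0.66) or 4 (0.76), without TBI day 14 replicate 4 (0.72), and with the covariate (0.56).

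**Figure D2:**
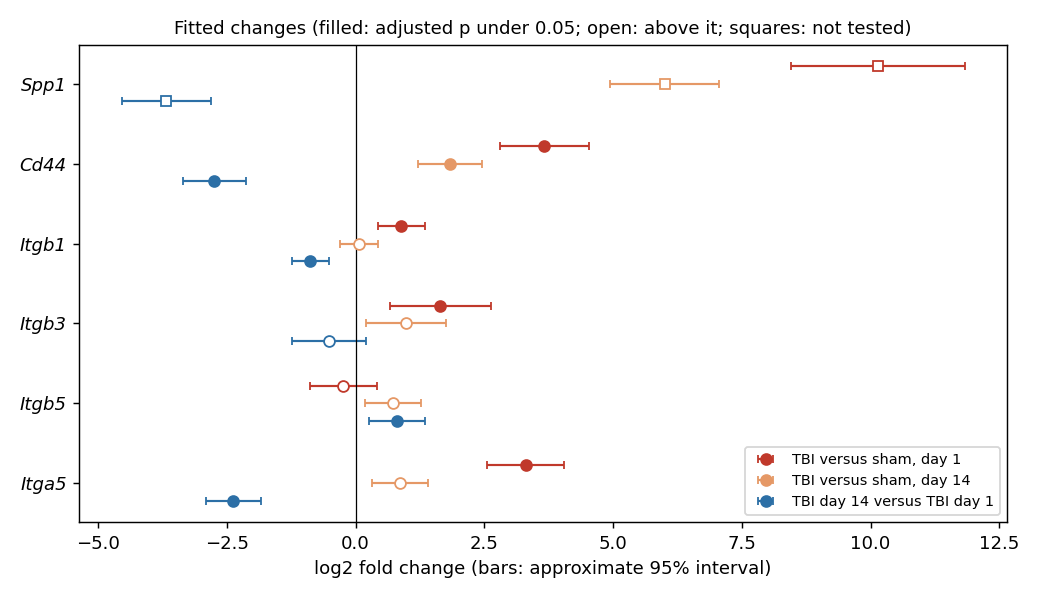
Fitted log2 fold changes of the 6 genes in 3 contrasts. Dots and squares give the estimate on the horizontal axis (log2), bars the approximate 95% interval, filled symbols an adjusted p under 0.05 by edgeR, and squares mark Spp1, for which no test was made. Cd44 is filled in all 3 contrasts, and Itgb5 has the 1 filled value above 0 in the contrast of the TBI groups.

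Counted together, 4 of the 5 receptor genes were called higher at day 1, where 11.2% of all 12875 tested genes were (7.93% lower). All 4 also had every TBI sample above every sham sample, as did 16.7% of all genes. At day 14, 1 of the 5 was called, where 4.07% of all genes were called higher and 0.365% lower. Samples stood apart upwards for 4 of the 5 at day 14, against 9.13% of all genes. The median log2 fold change of the 5 was 1.65 at day 1 and 0.86 at day 14, with medians over all genes of −0.015 and −0.031. The receptors were listed with earlier results of these data known, so these shares describe the list.

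The effect of TBI was larger at day 1 than at day 14 for 2 of the 5 receptors, where 2.24% of all genes were called in that direction. For Itga5 the effects differed by 2.44 on the log2 scale (SE 0.41, edgeR adjusted p = 0.00633), in all 22 alternatives, with 3.07 without sham day 1 replicate 1. For Cd44 they differed by 1.82 (SE 0.45, edgeR adjusted p = 0.0385), but 12 of 22 alternatives lost this call, and the adjusted p ranged up to 0.182. Among them were fits without sham day 1 replicate 1 or 2 (1.65 and 2.02), sham day 14 replicate 1, 3 or 4 (1.85, 1.75 and 1.75), TBI day 1 replicate 2 (1.57) and TBI day 14 replicate 2 or 3 (1.71 and 1.60). Itgb1 differed by 0.82 (SE 0.27, adjusted p = 0.104), and passed without TBI day 14 replicate 4 (1.00) and with DESeq2. Itgb3 differed by 0.67 (SE 0.57, edgeR adjusted p = 0.552) and Itgb5 by −0.96 (SE 0.40, adjusted p = 0.196); the latter was −1.51 and passed without sham day 1 replicate 2.

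Between the TBI groups, 3 of the 5 receptors fell from day 1 to day 14 and 1 rose, where 21.9% of all genes were called lower and 17.6% higher. The 3 that fell had every TBI day 14 sample under every TBI day 1 sample, as did 19.1% of all genes. Between the sham groups, 0 of the 5 were called by edgeR, where 11.3% of all genes were called higher in sham day 1. Of them, 1 had an unadjusted p under 0.05, Cd44 with 0.0157, which was called by DESeq2 (adjusted p = 0.0399), and was not called by limma-voom. It was also called without TBI day 1 replicate 2 or TBI day 14 replicate 3 (0.92 and 0.93), which share in the estimate of the spread.

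Levels varied between the rats of a group. In TBI day 14, replicate 4 had the highest level of all 6 genes. It had 183 CPM of Spp1, where the other 3 rats had 40.01 to 72.6. The same rat had the highest summed markers of infiltrating myeloid cells in its group, 162 CPM against 48.9 to 76.5. Lyz2 alone made 153 CPM of that sum. It also had the highest summed markers of microglia, 888 CPM against 505 to 687, a sum made mostly of Csf1r. In TBI day 1, replicate 2 had the lowest Spp1 of the group, 845 CPM against 1175 to 1222, and the highest Cd44 and Itga5. That rat also had the highest summed myeloid markers of its group, 469 CPM against 244 to 448. The coefficient of variation over rats was 15.98% for Spp1 in TBI day 1 and 75.7% in TBI day 14.

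Other integrin subunits moved in few cases. Counts in this and all following lists are to be read beside the shares over all tested genes. At day 1, 11.2% of all genes were called higher and 7.93% lower, and at day 14, 4.07% and 0.365%. In the list of further integrin subunits known to pair in osteopontin receptors, 1 of 4 tested genes rose at day 1 and 0 at day 14 (no gene of the list fell; at day 14, 1 had an unadjusted p under 0.05, limma-voom called 0 and DESeq2 1). That gene was Itgb7, a beta subunit of lymphocytes and other leukocytes, which had 3 to 12 counts in sham samples, 63, 263, 114 and 112 in TBI day 1 and 3 to 14 in TBI day 14. The day 1 difference was 4.41 on the log2 scale (SE 0.76, edgeR adjusted p = 0.00123), 5.39 without sham day 1 replicate 1 and 3.79 without replicate 2. Itgb6 had 208 and 0 counts in sham day 1, while the injured rats of that day had 4 to 33, without passing (−3.14, SE 1.18, adjusted p = 0.0755), and its high sample was the sham library rich in choroid plexus. Among 7 remaining subunits, Itga11, a collagen receptor subunit, fell at day 1 (−1.02, SE 0.32, edgeR adjusted p = 0.0403). That call was lost in 11 of 25 alternatives, and the value was −0.51 without sham day 1 replicate 2. It also lost the call without sham day 14 replicate 1 or 4, TBI day 1 replicate 2, 3 or 4, or TBI day 14 replicate 1 or 4, with values from −0.88 to −1.02. At day 14, 0 of the 7 passed by edgeR or limma-voom and 1 by DESeq2, 2 had an unadjusted p under 0.05, and the list medians were −0.33 (day 1) and −0.12 (day 14).

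Leukocyte integrins, which do not count among the usual osteopontin receptors, rose in 3 of 4 tested genes at each day. Itgb2, the beta 2 subunit that pairs with Itgal and Itgam, was higher by 2.43 at day 1 (SE 0.35, edgeR adjusted p = 0.00028) and 2.42 at day 14 (SE 0.26, adjusted p = 5.31e-05). Its partner on lymphocytes and myeloid cells, Itgal, rose by 3.58 and 2.43, and Itgam, its partner on microglia and macrophages, by 2.64 and 1.75 (highest adjusted p = 0.00826). All these calls held under every alternative, with Itgam at 3.55 at day 1 without sham day 1 replicate 1. The difference between the days was 0.01 for Itgb2 (SE 0.39, edgeR adjusted p = 0.992).

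No relative of osteopontin was called higher in TBI than in sham. In the SIBLING family of secreted phosphoproteins, Dmp1 and Mepe were not called at either day, with values between −0.57 and 0.58, and Dspp had at most 2 counts in any sample. Ibsp, bone sialoprotein, had the largest value of the family at day 14, 1.41, without a call by edgeR, limma-voom or DESeq2. Its means were then 0.78 CPM in sham and 2.08 CPM in TBI. Of the 3 tested genes, 1 had an unadjusted p under 0.05 at day 14. In TBI day 1, Ibsp was lower by −2.02 (SE 0.67, edgeR adjusted p = 0.0476). That difference rested on sham day 1 replicate 2 with 247 counts, where replicate 1 had 26 and the TBI day 1 samples 58, 29, 12 and 36. Without that sample it was 0.17 and against sham day 14 it was 1.003, and 16 of 25 alternatives lost the call, these turns of direction included.

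Of 14 other ligands of these receptors, 6 rose at day 1. At day 14, 1 rose and 1 fell, with list medians of 0.99 at day 1 and −0.24 at day 14. Lgals3, galectin-3, a lectin of macrophages and activated microglia, was the one that rose at both days, by 6.36 (SE 0.55, edgeR adjusted p = 5.63e-06) and 3.82 (SE 0.37, adjusted p = 1.96e-05). Leaving out sham day 1 replicate 1 moved the day 1 value to 7.44, and leaving out replicate 2 moved it to 5.72. Its levels were 141, 148, 208 and 150 CPM in TBI day 1, 35.8, 19.0, 16.5 and 44.7 in TBI day 14, and at most 3.07 in sham. Fn1, fibronectin, the main ligand of alpha 5 beta 1, rose at day 1 by 2.59 (SE 0.31, edgeR adjusted p = 5.73e-05) and had −0.61 at day 14 (SE 0.22, adjusted p = 0.182). The difference between the days was 3.20 (SE 0.37, edgeR adjusted p = 0.000529). Vwf, von Willebrand factor of endothelium and platelets, followed the same course, with 1.88 at day 1 (SE 0.31, edgeR adjusted p = 0.000858) and −0.35 at day 14 (adjusted p = 0.631), a difference between the days of 2.23 (adjusted p = 0.00668). Cyr61, a matricellular ligand of alpha V integrins, rose by 4.22 at day 1 (SE 0.65, edgeR adjusted p = 0.000512), but was also lower in sham day 1 than in sham day 14 by −2.34 (adjusted p = 0.0171), and against sham day 14 its day 1 value was 1.87. Its relative Ctgf was the 1 that fell at day 14 (−0.99, SE 0.26, edgeR adjusted p = 0.0412). That call was lost in 9 of 24 alternatives, among them fits without sham day 14 replicate 1 or 2 (−0.85 and −0.86), TBI day 1 replicate 2 or 3 (both −0.99) and TBI day 14 replicate 1, 3 or 4 (−0.85, −0.93 and −1.005).

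Enzymes that cut, cross-link, phosphorylate or dephosphorylate osteopontin rose in 5 of 10 tested cases at day 1 and 5 of 10 at day 14. The list medians were 1.19 and 0.89. Mmp12, the macrophage metalloelastase, had 0 counts in all 6 sham samples, 116, 251, 230 and 139 in TBI day 1 and 6, 9, 2 and 57 in TBI day 14. Against a floor of 3 counts per library it was at least 51.0-fold higher at day 1 and at least 5.13-fold higher at day 14, and the latter came mostly from replicate 4. The day 14 call of Mmp12 was lost in 7 of 22 alternatives, among them fits without any 1 sham day 14 sample or without TBI day 1 replicate 3. With Mmp12 at these bounds the list medians were the same. Plau, urokinase, rose by 2.81 (SE 0.43, edgeR adjusted p = 0.00049) and 2.52 (SE 0.33, adjusted p = 0.000234), and Ctsb, the lysosomal protease cathepsin B, by 1.05 and 0.72 (adjusted p = 0.00196 and 0.00998). At day 1 alone Mmp9 rose by 2.25 (edgeR adjusted p = 0.000498) and Tgm2, the transglutaminase that cross-links osteopontin, by 1.95 (adjusted p = 0.000253), with differences between the days of 2.84 and 2.01 (adjusted p = 0.00335 and 0.00633). At day 14 Mmp2 rose by 1.55 (SE 0.40, edgeR adjusted p = 0.036) and Acp5, an acid phosphatase of osteoclasts and macrophages, by 1.12 (SE 0.24, adjusted p = 0.0111). The call of Mmp2 was lost in 10 of 24 alternatives, among them fits without any 1 of the 4 sham day 14 samples (1.497 to 1.64). It was also lost without TBI day 14 replicate 1, 3 or 4 (1.59, 1.37 and 1.61). The value was lowest with the choroid plexus score as covariate (1.04), and 1.11 with all sham samples as 1 baseline, neither past the test. The call of Acp5 was lost without TBI day 14 replicate 4 (0.99) or without the libraries rich in choroid plexus (1.14).

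Adaptors on the inner side of the receptors were a further list. Among focal adhesion adaptors and kinases, 10 of 21 tested genes rose at day 1 and 2 at day 14 (none fell), with medians of 0.50 and 0.005. The 2 at both days were Fermt3, the kindlin of blood cells, with 2.71 (SE 0.30, edgeR adjusted p = 3.48e-05) and 1.48 (SE 0.22, adjusted p = 0.000646), and Parvg, the parvin of blood cells, with 1.62 and 1.05 (adjusted p = 0.00128 and 0.00921). Vasp, an actin regulator, and Tln1, talin-1, which switches integrins on, rose at day 1 by 1.21 and 1.06 (edgeR adjusted p = 0.000338 and 0.00161). The focal adhesion kinase Ptk2 was at −0.12 and −0.09. A list of 4 genes held Ezr, Rdx and Msn, the ERM proteins that anchor CD44 to actin, and their relative Nf2. Msn, moesin, rose at day 1 by 2.85 (SE 0.26, edgeR adjusted p = 7.37e-06) and differed between the days by 2.28 (adjusted p = 0.00118). Ezr, ezrin, rose by 0.93 (SE 0.24, edgeR adjusted p = 0.0159), with 0.47 and no call without sham day 1 replicate 2. Without sham day 1 replicate 1, Fermt3 was at 3.35 and Ezr at 1.62. At day 14, 0 of the 4 were called by edgeR, limma-voom or DESeq2, 2 had an unadjusted p under 0.05, and the median was 0.18.

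Genes for hyaluronan, the other ligand of CD44, rose in 2 of 8 tested cases at day 1 and fell in 0. Over all genes, 11.2% were called higher and 7.93% lower that day, so this small list shows no clear excess. At day 14, 0 of 8 were called by edgeR, limma-voom or DESeq2, and 1 had an unadjusted p under 0.05. Lyve1, a hyaluronan receptor of lymphatic endothelium and of macrophages around vessels, rose by 2.20 (SE 0.27, edgeR adjusted p = 7.59e-05), from 86 counts in each sham day 1 sample to 376 to 486 in TBI day 1. Against sham day 14 it was 3.08. Hyal2, a hyaluronidase, rose by 0.83 (SE 0.23, adjusted p = 0.0231), with 0.57 and no call without sham day 1 replicate 2 and 0.73 without TBI day 1 replicate 2. The hyaluronan synthases Has1, Has2 and Has3 were not called by edgeR, with 0.61, 1.66 and −1.46. At day 1, DESeq2 called 3 of the 8 genes.

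**Figure D3:**
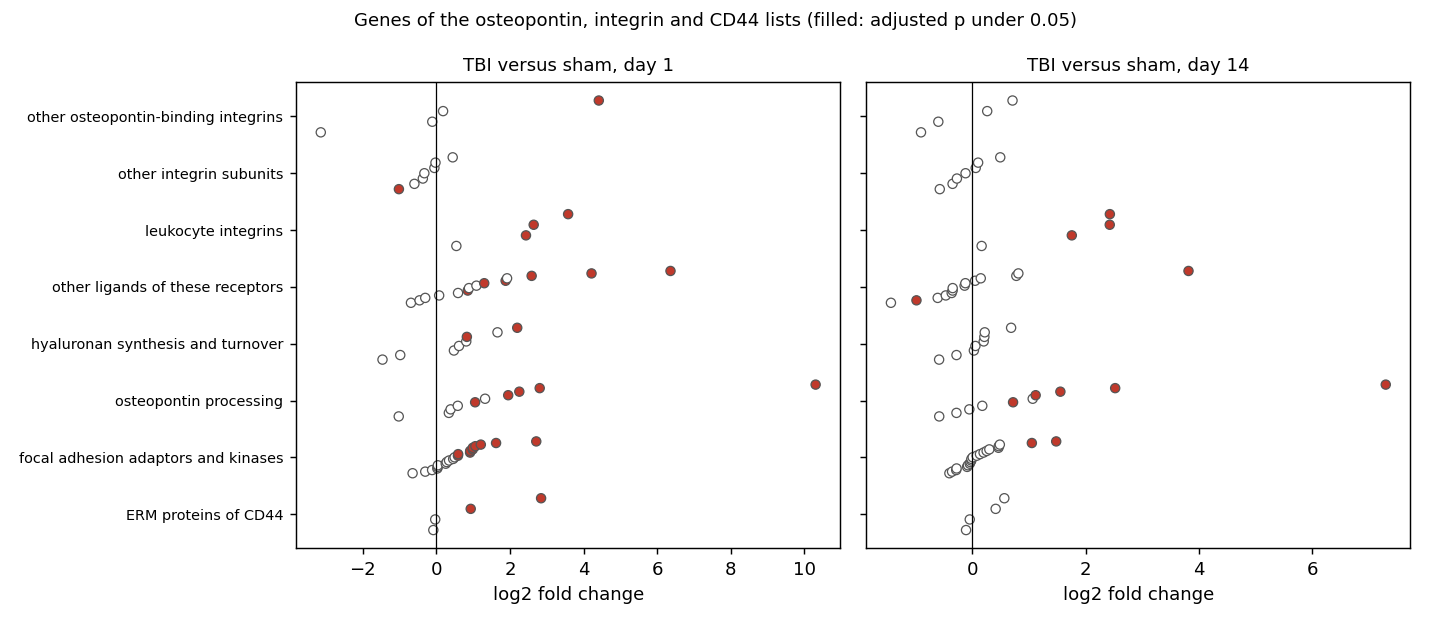
Fitted log2 fold changes of the genes around osteopontin, integrins and CD44, by list. Each dot is a gene, filled where its adjusted p by edgeR is under 0.05; left, day 1, and right, day 14. The farthest dot in both panels is Mmp12, whose fitted value has no counts in sham behind it and is no bound. Filled dots are more numerous at day 1 (10 of 21 adaptors) than at day 14 (2 of 21).

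Markers of cell types that can express these genes moved in the same samples. The summed markers of infiltrating myeloid cells were 29.5 to 52.1 CPM (day 1) and 27.3 to 35.2 CPM (day 14) for sham rats. They were 244 to 469 CPM (day 1) and 48.9 to 162 CPM (day 14) for injured ones. Most of the sum was Lyz2, with a mean of 323 CPM in TBI day 1. Means of the others in that group were 16.5 (Mrc1), 16.2 (S100a9), 8.12 (S100a8) and 6.33 CPM (Cd163). Whether these transcripts came from infiltrating cells was not tested. All 5 of these genes were called higher at day 1, among them S100a9 and S100a8 of neutrophils with 5.32 and 5.31 (edgeR adjusted p = 7.72e-05 and 0.000833), and 1 of 5, Lyz2, at day 14 with 1.66 (adjusted p = 0.00712). The microglia markers summed to 188 to 316 CPM in sham rats against 284 to 349 in injured rats at the first time, and to 221 to 273 against 505 to 888 CPM at the second. At day 1, 1 of these 5 rose, Aif1 by 1.33 (edgeR adjusted p = 0.00131), while the homeostatic markers Tmem119 and P2ry12 fell by 1.90 and 0.88 (adjusted p = 0.00299 and 0.019), the latter by 0.58 and without a call when sham day 1 replicate 1 was left out. At day 14, 4 of the 5 rose, with Csf1r at 1.60 (adjusted p = 0.000111). Astrocyte markers summed to 2684 to 4248 CPM in sham and 6092 to 15515 in TBI, and Gfap made most of the sum in TBI only. In sham day 1, Gfap had a mean of 1255 CPM beside 1068 for Aqp4 and 1117 for Slc1a3. Gfap was the 1 of 4 that was called, with 3.10 and 2.06 (edgeR adjusted p = 2.02e-05 and 7.26e-05). The list medians were 0.18 and 0.31, and Aldh1l1 was at −0.53 and −0.24 without passing. In TBI rats the summed myeloid markers were higher at day 1, as were Spp1, Cd44 and Itga5, and the summed microglia markers were higher at day 14. Most of the microglia sum was Csf1r, with means of 204 CPM in TBI day 1 and 478 CPM in TBI day 14. From TBI day 1 to TBI day 14, edgeR called 3 of the 5 microglia markers higher and 0 lower (17.6% and 21.9% of all genes). The smallest log2 difference of the 5 was 0.085. In further lists, 1 of 3 endothelial markers rose at day 1 (Pecam1, 1.14), and 1 of 3 neuron (Rbfox3, −0.88) and 1 of 3 hippocampal neuron markers (Prox1, −1.66) fell. Without sham day 1 replicate 2 the calls of Pecam1 (0.84), Rbfox3 (−0.41), Prox1 (−0.39) and the myeloid marker Cd163 (2.48) were lost. The day 1 call of Rbfox3 was kept in only 9 of 25 alternatives, and limma-voom gave −0.89 (adjusted p = 0.0583). Calls of Prox1, Pecam1 and Cd163 were kept in 20 of 25, 23 of 25 and 22 of 24. Of 5 pericyte and fibroblast markers 0 were called at either day by edgeR, limma-voom or DESeq2, and 0 had an unadjusted p under 0.05. Of 9 tested choroid plexus markers, 8 were lower at day 1 and 1, Ttr, was higher at day 14 (7.73, adjusted p = 0.0487) by edgeR, while limma-voom called 0 at both days and DESeq2 8 and 7. These differences follow the 3 libraries named above, 1 of the 2 sham day 1 and 2 of the 4 TBI day 14 samples. The part of cell numbers in the levels of Spp1 and its receptors was not tested.

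**Figure D4:**
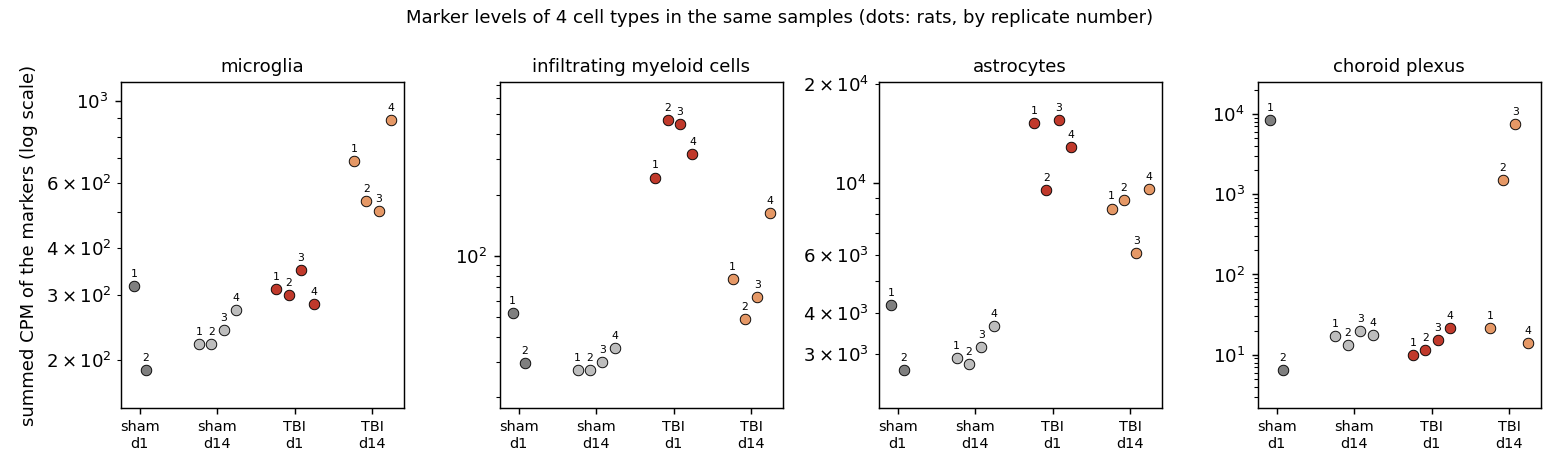
Summed CPM of marker genes of 4 cell types in each rat, on a log axis. Dots are rats with their replicate number. Infiltrating myeloid markers are highest in TBI day 1 (244 to 469 CPM), microglia markers in TBI day 14 (505 to 888 CPM), and choroid plexus markers stand out in 3 rats.

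Several of the genes whose profile over the 14 samples came nearest to that of Spp1 are known from phagocytes. Likeness was the root mean square difference of z-scored log2 CPM between 2 genes, over 11831 other genes with a mean log2 CPM above 0, and is a description, since the samples share 4 groups. Among the nearest 10 were Lgals3, Ptpn7, S100a4, Fcgr3a, Hcls1, Lilrb4, Casp4 and Nek6, with differences of 0.137 to 0.205 standard deviations. Lilrb4, an inhibitory receptor of myeloid cells, had 0 to 7 counts in sham samples, 1130 to 2122 in TBI day 1 and 35 to 192 in TBI day 14. Fcgr3a is an Fc receptor and S100a4 a calcium-binding protein. Without the sham day 1 samples, 6 of the 10 were again among the nearest 10.

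Among the receptors, Cd44 and Itga5 followed Spp1 most closely, at ranks 138 and 160 of 11831, with differences of 0.367 and 0.390. Itgb3 stood at rank 338, Itgb1 at 783 and Itgb5 at 4877. Cd44 and Itga5 were closer to each other, at 0.311, than either was to Spp1. Nearest to Cd44 were Fgl2, FAM187A and Plin2, and nearest to Itga5 were Timp1, Hspb1 and Stk40, with Timp1, an inhibitor of metalloproteinases, at 0.140. Itgb1 had Anpep, Lmna and Mrc1 as its nearest genes, Itgb3 had Olr1 and Slamf9 among its nearest 3, and Itgb5 had Gal3st4, Grxcr1 and Lcat. The nearest gene lay at 0.272 for Itgb1 and 0.309 for Itgb5, and Olr1 lay at 0.408 from Itgb3. The counts of Itgb3 were low, and the effect of this on its distances was not tested.

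**Figure D5:**
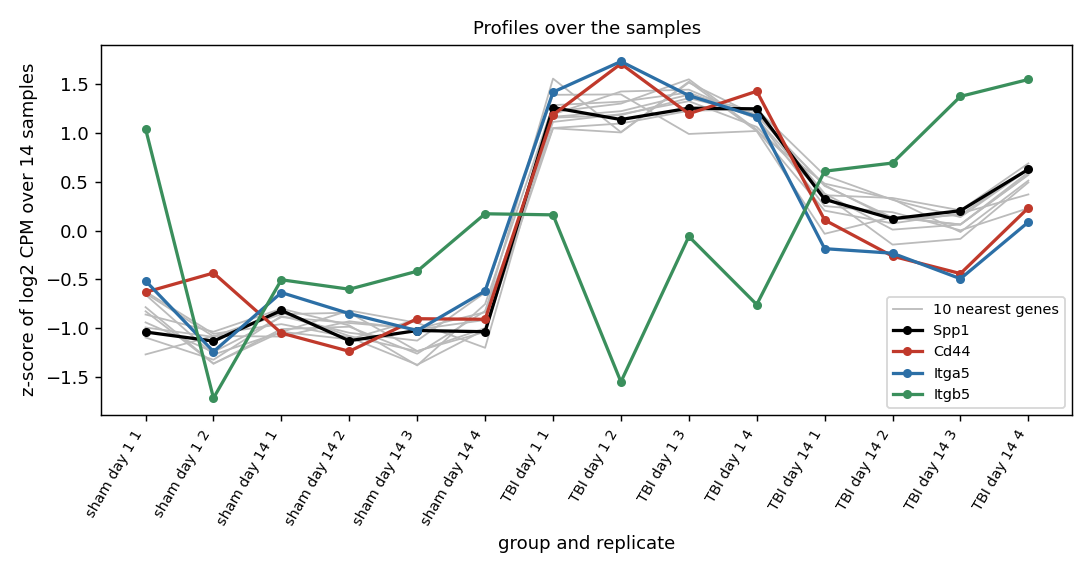
Profiles of Spp1, Cd44, Itga5 and Itgb5 and of the 10 genes nearest to Spp1 over the 14 samples. The vertical axis is the z-score of log2 CPM (mean 0, SD 1 for each gene), the horizontal axis the group and replicate, and lines join samples to guide the eye. Spp1 and its neighbours are high in TBI day 1 and between the groups in TBI day 14, whereas Itgb5 is highest in TBI day 14 replicate 4.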

How the data were processed

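RNA of 14 rat hippocampi was analysed. Per the labels and methods, the authors aligned single-end reads of a stranded mRNA library to the rat build rn5 with STAR 2.4.2a and counted them per UCSC gene with featureCounts 1.5.0; the deposited values are raw counts, with 2 duplicated gene names kept as separate rows. From these, genes were kept by the default expression filter of edgeR 4.0.16 (R 4.3.3, minimum count 10, minimum total 15), which left 12875 of 17172. Counts were normalized by TMM, and 4 group means were fitted over all 14 samples by the quasi-likelihood test, with Benjamini-Hochberg adjustment over all tested genes and a threshold of 0.05. The standard error is the log2 fold change over the root of F, and intervals are approximate. CPM uses TMM-adjusted totals, and log2 CPM a prior count of 2. Lengths were not used, so levels are compared within a gene. Intervals cover the spread between rats.

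The members and lists were chosen with earlier results of these data known. Named genes are the members, up to 4 called genes with the largest log2 fold change per list and contrast, genes of a list with at most 3 counts in any sample, and the nearest profiles (10 for Spp1, 3 for each receptor); other genes named were chosen after their values were seen, and some genes that the rule names are not reported here. Alternatives were RLE factors, other filters, limma-voom (limma 3.58.1), DESeq2 1.42.0, a replicate block, other sets of samples and baselines, a choroid plexus covariate and leaving out each sample. Leaving out the 3 libraries rich in choroid plexus was chosen after seeing the data. Replicates of a group differed by more than sampling noise (chi-square per degree of freedom 13.3 to 171). The labels name no batch. A figure legend of the paper mentions a correction of expression for a batch effect, without naming the batches. No batch term was in the main fit, so a batch effect on these values was not tested. The study's methods give another number of sham rats at day 14 than the labels, and the 4 labelled samples were used. The test was tried on simulated counts. The 4 deposited lists of histone peaks were not used here. Promoters came from RefSeq, build GRCr8. Figures were drawn with Python 3.11.15 and matplotlib 3.10.9.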

Additional observations from a re-analysis of the deposited data

Results flagged for a closer look

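In TBI day 1, the lowest Spp1 level, that of replicate 2, lay far from the other 3 rats. Its gap to the nearest of them was 0.894 of the range of the group. Of 18 groups of values examined in this way for the 6 genes this was the 1 that passed, and chance passes about 1 in 20. The effect of TBI differed between the days for Cd44 by 1.82 on the log2 scale (adjusted p = 0.0385 by edgeR) and for Itga5 by 2.44 (adjusted p = 0.00633 by edgeR), both larger at day 1 in the fit over all 14 samples.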

How the results depend on the processing

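The calls of Cd44 and Itga5 at day 1, of Cd44 at day 14 and of Itga5 between the days were kept under all alternatives that were run. Of the 5 receptors, 4 were called at day 1, but 2 in the fit of only the groups compared, and 2 to 4 when single samples were left out. At day 14, 1 was called in the main analysis, 2 with DESeq2, with all sham samples as 1 baseline and without the 3 libraries rich in choroid plexus, 3 in the groups compared alone, and 1 to 3 when single samples were left out. The day difference called 2, against 1 with limma-voom, with the choroid plexus covariate and without the 3 libraries, and 1 to 3 when single samples were left out. Between the TBI groups leaving out samples gave 3 to 4 calls of 4. Between the sham groups 0 were called, against 1 with DESeq2, in the groups compared alone, with the covariate and without the 3 libraries, and 0 to 1 when samples were left out.

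Some differences turned direction. Ibsp and Rbfox3 at day 1 were called in the main fit, and the other differences given here were not. Itgb5 at day 1 was 0.17 with the covariate, 0.63 without the 3 libraries and −0.78 to 0.64 when single samples were left out, and Itgb1 at day 14 was −0.11 without TBI day 14 replicate 4. Between the sham groups, Itgb5 was −0.00996 with limma-voom, −0.24 with the covariate and −0.71 without the 3 libraries, where Itgb3 was 0.14 and Itgb1 −0.24. Leaving out single samples gave −0.72 to 0.70 for Itgb5, −0.55 to 0.14 for Itgb3, −0.25 to 0.30 for Itgb1 and −0.70 to 0.38 for Itga5, with 0.012 without sham day 14 replicate 4. Ibsp at day 1 was −2.85 to 0.17 when single samples were left out and 1.003 against sham day 14, and Rbfox3 was 0.36 against sham day 14. Of the genes nearest to Spp1, 6 of 10 were shared without the sham day 1 samples. The causes were not tested.

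Equal replicate numbers were not treated as pairs in the main fit. Deviations of same-numbered samples correlated at 0.127 and 0.073 at day 1 and between −0.038 and 0.240 at day 14. Samples with different numbers correlated between −0.191 and 0.191 at day 1 and between −0.430 and 0.213 at day 14. The deviations of the 2 sham day 1 rats mirror each other, so these values cannot decide whether rats were paired. With the replicate block, the day difference called 1 receptor (Cd44 1.86, adjusted p = 0.0501), and Itgb3 between the sham groups was 0.082. Itgb3 had no value under a minimum of 10 counts in every sample, and the groups compared alone give none for the day difference. A sham day 1 group with 1 sample left was assumed to vary like the others. Depth limits Itgb3 most, with as few as 9 counts.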
